A study of Mus musculus with 9 samples.

Results

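The constitutive 26S proteasome was followed here through the 34 mouse genes Psma1 to Psma7, Psmb1 to Psmb7, Psmc1 to Psmc6 and Psmd1 to Psmd14, chosen by gene name from the 24186 genes of a read count table. All 34 were present, each under 1 gene identifier, and all 34 were among the 15098 genes with enough counts to be tested. A member had between 625 and 16016 counts in a library. The interferon-induced subunits Psmb8, Psmb9 and Psmb10 were not members and are described below only as partners of the constitutive catalytic subunits.

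RNA came from bone marrow stromal progenitors of adult C57Bl/6 mice carrying the irtTA-GBD*-TAg transgene, in all 3 groups alike. Dexamethasone and doxycycline drive large T antigen from this transgene and so immortalise the cells conditionally. The cells had been cloned, and both drugs were withdrawn for 3 days before RNA was taken. The groups were 3 libraries of progenitors with adipogenic potential, 3 of adipogenic progenitors that had 3 days of interferon-γ (IFNγ) at 10 ng/ml, and 3 of progenitors with osteogenic potential, each numbered 4, 5 and 6 in its title. The series calls them biological replicates without saying whether they were separate clones, cultures or animals, so the p values reflect the spread among these libraries alone, which may be technical.

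The 26S proteasome degrades proteins tagged with ubiquitin. Its 20S core is a barrel of outer α rings, which gate the entrance, and inner β rings, in which Psmb5, Psmb6 and Psmb7 carry the chymotrypsin-like, caspase-like and trypsin-like activities. The 19S cap has a base, whose Psmc ATPases unfold the substrate, and a lid, whose enzyme Psmd14 removes the ubiquitin chain. IFNγ is known to induce Psmb8, Psmb9 and Psmb10, which replace Psmb5, Psmb6 and Psmb7 in newly made cores to form immunoproteasomes. In bone marrow stroma the complex is known from proteasome inhibitors, which favour osteoblast formation. Psmd5, Psmd9 and Psmd10 have subunit names but are chaperones that help to assemble the base and are not part of the finished particle. The members thus comprised 7 α ring genes, 7 β ring genes, 6 base ATPases, 3 other base subunits (Psmd1, Psmd2 and Psmd4), 8 lid genes and 3 chaperones.

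The promoter stretches below are those of the 3 groups of genes on which the comparisons turned. Psma5 and Psma1 are α ring genes that rose with IFNγ within pairs of same-numbered libraries, Psmb5 and Psmb6 are constitutive catalytic subunits that did not pass the test, and Psmb8 is the interferon-induced counterpart of Psmb5. Each is the 250 bases before the annotated transcription start, 5′ to 3′ on the strand of the gene, from RefSeq on GRCm38.p6. They lie at chr3:108256676-108256925 for Psma5 (plus strand), chr7:114276117-114276366 for Psma1 (minus strand), chr14:54617996-54618245 for Psmb5 (minus strand), chr11:70525107-70525356 for Psmb6 (plus strand) and chr17:34197945-34198194 for Psmb8 (plus strand). Capitals mark a CCAAT box on either strand in Psma1, the antioxidant response element core TGACNNNGC in Psmb5 and Psmb6, and the interferon-γ activated site TTCNNNGAA in Psmb8.
Psma5: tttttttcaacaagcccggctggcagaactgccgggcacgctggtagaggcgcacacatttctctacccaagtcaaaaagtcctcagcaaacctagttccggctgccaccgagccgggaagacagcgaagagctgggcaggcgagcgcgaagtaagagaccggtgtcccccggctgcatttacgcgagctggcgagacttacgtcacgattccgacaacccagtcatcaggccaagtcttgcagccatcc
Psma1: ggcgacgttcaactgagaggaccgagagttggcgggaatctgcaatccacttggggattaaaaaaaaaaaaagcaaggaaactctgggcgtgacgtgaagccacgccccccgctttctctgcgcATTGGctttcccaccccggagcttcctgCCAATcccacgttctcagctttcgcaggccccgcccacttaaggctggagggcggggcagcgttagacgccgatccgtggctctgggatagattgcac
Psmb5: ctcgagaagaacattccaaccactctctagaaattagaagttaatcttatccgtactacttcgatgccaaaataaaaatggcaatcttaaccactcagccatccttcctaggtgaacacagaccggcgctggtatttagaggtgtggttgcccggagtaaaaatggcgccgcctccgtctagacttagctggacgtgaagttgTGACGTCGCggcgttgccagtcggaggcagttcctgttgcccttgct
Psmb6: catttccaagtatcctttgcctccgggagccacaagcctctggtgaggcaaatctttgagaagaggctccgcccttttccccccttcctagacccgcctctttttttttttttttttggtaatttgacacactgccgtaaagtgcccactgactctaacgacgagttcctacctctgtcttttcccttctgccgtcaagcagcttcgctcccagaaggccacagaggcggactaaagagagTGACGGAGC
Psmb8: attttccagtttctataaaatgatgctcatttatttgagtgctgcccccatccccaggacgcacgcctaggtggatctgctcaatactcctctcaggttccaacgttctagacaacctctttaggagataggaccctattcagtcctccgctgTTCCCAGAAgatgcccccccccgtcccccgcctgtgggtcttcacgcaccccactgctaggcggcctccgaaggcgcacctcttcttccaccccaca

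Promoters were available for 28 of the 34 members, and 6 motifs were searched on both strands from 250 bases before to 50 after the start, beside 27025 genes of the same table. The motifs were the 3 above, the GC box GGGCGG, the interferon-stimulated response element (GAAA repeated after any 2 bases) and the ETS core CCGGAAG. The GC box was present for 18 members (64.3%, against 38.2% of all genes) and the ETS core for 10 (35.7% against 9.93%). TGACNNNGC, the core bound by the proteasome regulators Nfe2l1 and Nfe2l2, was present for Psmb5, Psmb6, Psmc6, Psmd9 and Psmd12 (17.9% against 14.0%). The CCAAT box was present for 11 members (39.3% against 41.1%) and the interferon-stimulated response element for 3, Psmb3, Psmd4 and Psmd9 (10.7% against 3.99%). TTCNNNGAA, which reads the same on both strands and can overlap the interferon-stimulated response element at GAA, was present for Psmd2 alone (3.57% against 9.55%). The Psma5 stretch held no match to any of the 6. A match is a string of letters and no test of these shares was made.

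Deposited counts summed to 27440089 to 39251602 per library, and the 34 genes together took 0.410 to 0.631% of them. Levels are given as CPM, counts relative to the size of the library, which was set by TMM, a method that evens out differences in composition between libraries. The 10 most counted genes made up 10.7 to 13.3% of the osteogenic libraries against 4.12 to 6.23% of the adipogenic ones. Mitochondrial transcripts took 0.660 to 0.706% of the treated libraries and 0.930 to 1.38% of the others. Of the osteogenic markers, Sp7 was at 50.6 to 129.6 CPM in the osteogenic and at most 0.313 CPM in the adipogenic libraries, and Alpl at 260.2 to 395 against at most 17.9 CPM. Runx2 and Ibsp were also higher in every osteogenic than in every adipogenic library. The markers Bglap, Spp1 and Dmp1 overlapped between the osteogenic and untreated adipogenic libraries, Spp1 at 190 to 1451 and 212 to 1355 CPM. Of the adipogenic markers, Pparg and Lpl were on average higher in the untreated adipogenic than in the osteogenic group, while Adipoq, a gene of mature fat cells, was at most 0.200 CPM. Fabp4 was at 21.5, 24.1 and 234 CPM in untreated replicates 4, 5 and 6 and averaged 21.3 CPM in the osteogenic group. Cebpa and Cebpb differed little, averaging 30.9 and 79.3 CPM untreated and 28.2 and 73.7 CPM osteogenic. Of 8 stromal markers, 6 averaged over 1 CPM in each group. The collagen gene Col1a1 averaged 6899 CPM in the untreated, 2262 in the treated and 34387 in the osteogenic group, the chemokine gene Cxcl12 2497, 418 and 1216, and the receptor gene Pdgfrb 314, 206 and 365. The other 2 stromal markers, Thy1 and Lepr, were at most 0.427 CPM in all 9 libraries. The blood cell and macrophage markers summed to 12.6 to 30.5 CPM in the untreated, 12.5 to 20.1 in the treated and 9.37 to 12.1 in the osteogenic libraries. Of them Cd68 was at 3.48 to 18.6 CPM, Cd14 at 4.05 to 16.4 and Lyz2 at 0.621 to 2.68, while Ptprc, the pan-leukocyte gene, was at most 0.0998 CPM. The endothelial genes Pecam1, Cdh5 and Emcn were at most 0.171 CPM. A further endothelial marker, Kdr, was at 8.65 to 17.4 CPM in the untreated and 21.5 to 53.9 CPM in the treated adipogenic libraries, and the part of these differences in the results was not tested.

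Levels of the members differed widely from gene to gene (see the plot of levels by library). Levels of different genes were compared only per kilobase of the exonic length that the table gives, as CPM per kb over all 9 libraries. Psmb1 (ENSMUSG00000014769) and Psmb4 (ENSMUSG00000005779), both β ring subunits without catalytic activity, were the most abundant at 214 and 213 CPM per kb. Psma3 (ENSMUSG00000060073), an α ring subunit, was the lowest at 7.08, a 30.3-fold span, followed by the chaperone Psmd9 (ENSMUSG00000029440) at 11.2. The chaperones were the sparsest set, with a median of 18.4 CPM per kb, and the β ring the most abundant, with a median of 106. The medians of the other sets were 78.2 for the base ATPases, 69.2 for the other base subunits, 51.3 for the α ring and 42.8 for the lid.

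Subunits of 1 ring, present in equal number in the particle, were thus far apart in transcript level in this table. Psma3 was at 22.3, 26.5 and 27.5 CPM in untreated replicates 4, 5 and 6, at 25.4, 31.8 and 36.3 in the treated ones and at 25.8 to 26.6 in the osteogenic ones. Reads of a near-identical copy bear on this value. The predicted gene Gm13835 matched a Psma3 transcript at 100% over 665 bases and had 23.0 to 41.9 CPM of its own. How the authors' counting divided such reads is not given in the sources used here. With the length of the annotated principal transcript in place of the exonic length, Psmb4 was highest (249 CPM per kb), Psmb1 ranked 10 in place of 1 (126), Psma3 still lowest (9.69) and the span 25.7-fold. The median of the β ring was then 132, level with 131 for the other base subunits. The base ATPases had 101, the α ring 76.9, the lid 68.7 and the chaperones 18.9. For Psmb1, among other members, the principal transcript (1758 bases) was longer than the exonic length (1036 bases). The lengths thus come from unlike annotations, and the change in its rank depends on that. In all, 10 members had a copy of at least 300 bases and 95% identity, and for 8 of them a copy was in the count table.

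**Figure D1:**
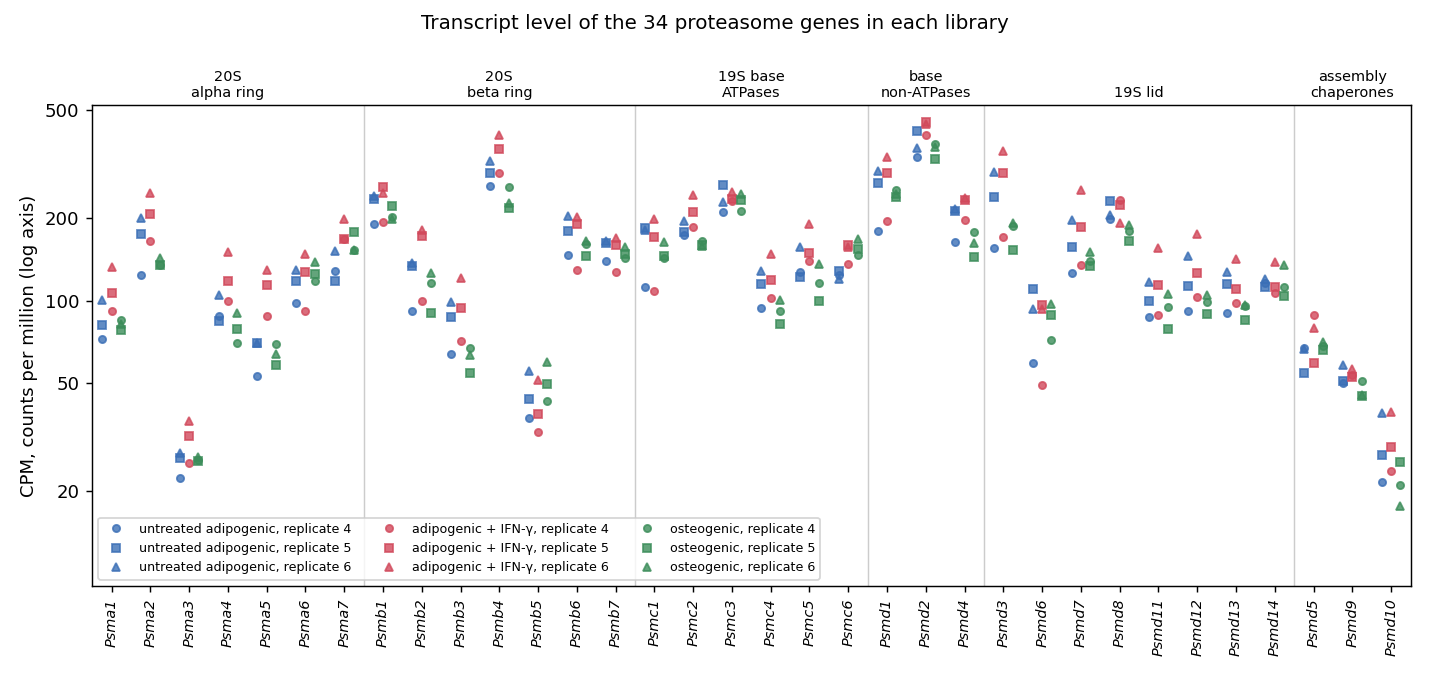
CPM (vertical axis, log scale) of each of the 34 genes (horizontal axis, grouped by sub-complex) in each of the 9 libraries, coloured by group and with a symbol for the replicate number. Psma3 and Psmd10 lie lowest and Psmd2 and Psmb4 highest on this scale, which is not divided by length, and within the adipogenic groups the circles of replicate 4 mostly lie below the triangles of replicate 6.

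Most members moved together between libraries of the same adipogenic group. Replicate 4 was the lowest of its group for 28 of 34 members in the untreated adipogenic libraries, where 34.5% of all genes tested had that order. The same held for 31 of 34 in the treated libraries (35.4% of all genes). In the osteogenic libraries only 10 of 34 had that order, near the 31.6% of all genes. Replicate 6 was highest for 27 members in the untreated group (32% of all genes), 28 in the treated (31.1%) and 22 in the osteogenic group (35.5%). The summed CPM of the 34 genes showed this order in both adipogenic groups. It was 4107, 5018 and 5368 in untreated replicates 4, 5 and 6 and 4538, 5581 and 6313 in the treated ones. In the osteogenic replicates it was 4456, 4232 and 4651, a narrower range that lay inside that of the untreated libraries. The median coefficient of variation over members was 14.6% in the untreated, 19.2% in the treated and 7.71% in the osteogenic group, against 21.5, 21.9 and 14.6% over all genes tested.

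The members with the widest spread in both adipogenic groups were the lid subunits Psmd3 and Psmd6. Psmd3 (ENSMUSG00000017221) was at 156, 240.2 and 296 CPM in untreated replicates 4, 5 and 6 and at 171, 294 and 353 CPM in the treated ones. Replicate 4 was thus the low library in both groups, and the 2 groups overlapped. Psmd6 (ENSMUSG00000021737) ran from 59.2 to 110.7 CPM untreated and from 49.0 to 96.0 CPM treated, again with replicate 4 lowest. The same-numbered adipogenic libraries therefore shared their departures from the group mean, as they did across all genes, and treated and untreated libraries of 1 number are called a pair below.

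The question of the first comparison was what 3 days of IFNγ changed in adipogenic progenitors. Few constitutive proteasome genes passed the test. In the fit by group alone, 0 of 34 members passed an adjusted p of 0.05 (edgeR's quasi-likelihood test), while 2.26% of all genes did (2.01% up and 0.245% down). At an unadjusted p under 0.05 there were 3 members, or fewer in proportion than the 14.3% of all genes. With a term for the pair, 3 of 34 rose, all of them α ring genes, Psma5, Psma1 and Psma7, and 0 fell. The background of that fit was 6.53% of genes up, 4.27% down and 10.8% in either direction, so that the share of members called was near the background. At an unadjusted p under 0.05 the fit with the pair term had 11 of 34 members, against 27.3% of all genes. Of these 11, 6 were α ring genes. Otherwise DESeq2 called 1 member, Psma5, with a background of 6.75%, and limma-voom 0, with a background of 2.6%.

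Psma5 (ENSMUSG00000068749), an α ring subunit, was at 53.0, 69.8 and 70.0 CPM in untreated replicates 4, 5 and 6 and at 88.0, 114 and 129 CPM in the treated ones. Every treated library was above every untreated one, and the rise was seen in all 3 pairs. With the pair term the log2 fold change was 0.77 ± 0.09 (SE), a 1.71-fold rise with a 95% interval of 1.46 to 2.00 (edgeR, adjusted p = 0.00558). By group alone it was 0.78 ± 0.18 (edgeR, adjusted p = 0.0713). Psma5 stayed past the threshold without pair 4 (adjusted p = 0.0371) or pair 5 (0.0388), but not without pair 6, where 0 members were called. The osteogenic libraries, at 69.3, 57.9 and 63.9 CPM, lay in the range of the untreated ones.

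Copies of Psma5 moved alongside it. Gm12989, a predicted gene 97.5% identical to Psma5 over 734 bases, was at 7.86 to 10.1 CPM in the untreated and 12.2 to 17.9 CPM in the treated libraries. Gm8394, 98.6% identical over 952 bases, was at 4.45 to 6.09 and 7.24 to 10.5 CPM. Reads shared by the 3 genes cannot be told apart here, and the copies stood well below Psma5 itself.

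Psma1 (ENSMUSG00000030751), another α ring subunit, was at 72.3, 81.3 and 100.8 CPM untreated and at 91.7, 107 and 133 CPM with IFNγ. The groups overlapped, because treated replicate 4 was below untreated replicate 6, but the rise within the pairs was even, at 0.34, 0.39 and 0.40 on the log2 scale. With the pair term the log2 fold change was 0.38 ± 0.07 (edgeR, adjusted p = 0.0246), and by group alone 0.38 ± 0.17 (adjusted p = 0.363). Psma7 (ENSMUSG00000027566), also of the α ring, was at 129, 118 and 152 CPM untreated and at 168, 169 and 199 CPM with IFNγ. Its groups did not overlap. The log2 fold change was 0.43 ± 0.09 with the pair term (edgeR, adjusted p = 0.0328) and 0.43 ± 0.14 by group alone (adjusted p = 0.193). Neither Psma1 nor Psma7 was past the threshold once any 1 pair was left out, a fit with fewer libraries in which 346 to 470 genes in all were called against 1631.

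The direction of change was more uniform than the calls. The fitted difference was positive for 30 of 34 members, where 47.3% of all genes were positive, and its median was 0.20 against −0.02 over all genes. Upper-quartile scaling left 25 positive, and leaving out untreated replicate 4 or treated replicate 6 left 21 each, with medians of 0.05 and 0.02. Those last 2 fits were by group alone and each broke a pair. With the pair term, 30 were positive without pair 4, 30 without pair 5 and 27 without pair 6. The medians of these fits were 0.21, 0.20 and 0.16. Within the pairs, 23 members were higher with IFNγ in all 3, where 26.9% of all genes were. Of the α ring 6 of 7 genes were higher in all 3 pairs, Psma6 being the exception, and of the other base subunits 3 of 3. The β ring, the base ATPases and the lid had 4 each, and the chaperones 2. Only Psmb5 and Psmd6 were lower in all 3 pairs (29.7% of all genes were), Psmd6 by less than 0.01 on the log2 scale in pair 6. The untreated and treated groups did not overlap for Psma5, Psma7 and Psmc6, each higher with IFNγ (3 of 34, against 10.2% of all genes), and for 0 members were they apart in the other direction (7.17% of all genes).

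**Figure D2:**
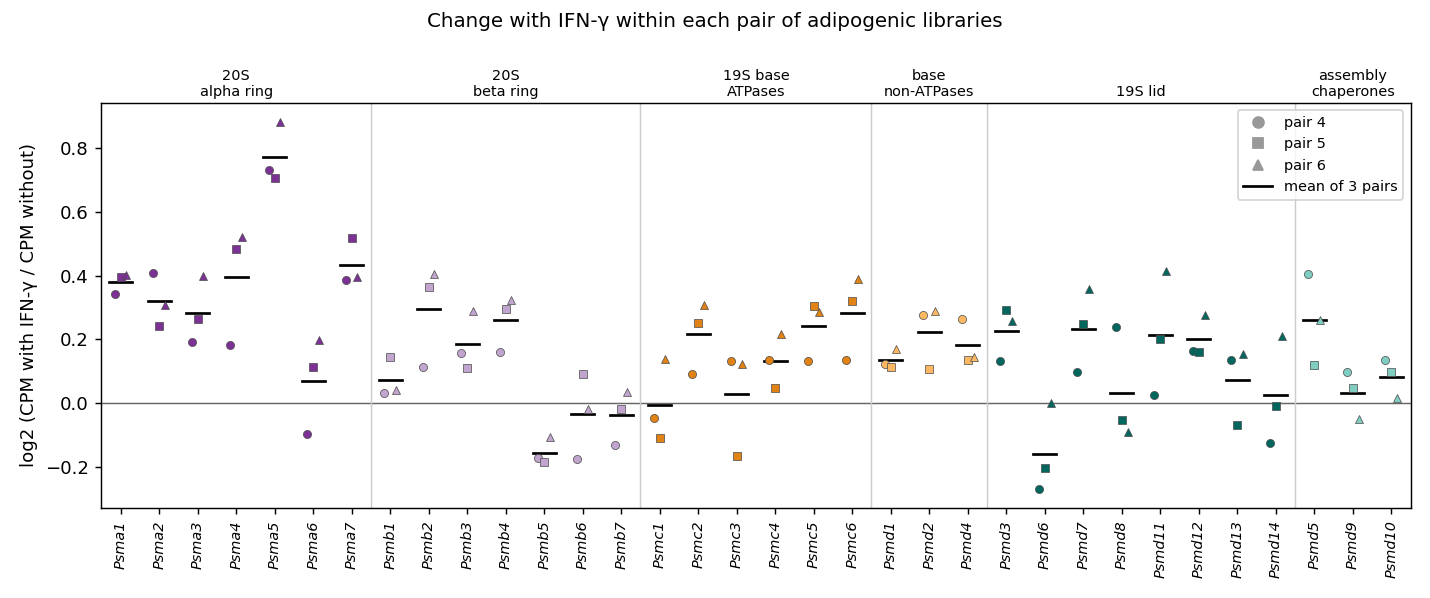
Log2 ratio of treated to untreated CPM within each of the 3 pairs (symbols) and their mean (black bars) for the 34 genes on the horizontal axis, coloured by sub-complex. The α ring stands highest, led by Psma5 at 0.71 to 0.88, while Psmb5 and Psmd6 lie at or below 0 in all 3 pairs.

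By sub-complex, the summed CPM of the α ring was 586, 673 and 785 in untreated replicates 4, 5 and 6 and 729.7, 874 and 1046 in the treated ones. Treated over untreated was thus 1.24, 1.30 and 1.33 in the pairs. For the β ring the ratios were 1.02, 1.12 and 1.12, for the base ATPases 1.07, 1.06 and 1.18, and for the lid 1.07, 1.07 and 1.16. The other base subunits had 1.18, 1.08 and 1.16, and the chaperones 1.20, 1.06 and 1.07. All 34 genes together gave 1.10, 1.11 and 1.18. In each pair the α ring had the highest ratio of the 6 sets. These sums are descriptions of genes chosen as a set and were not tested.

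**Figure D3:**
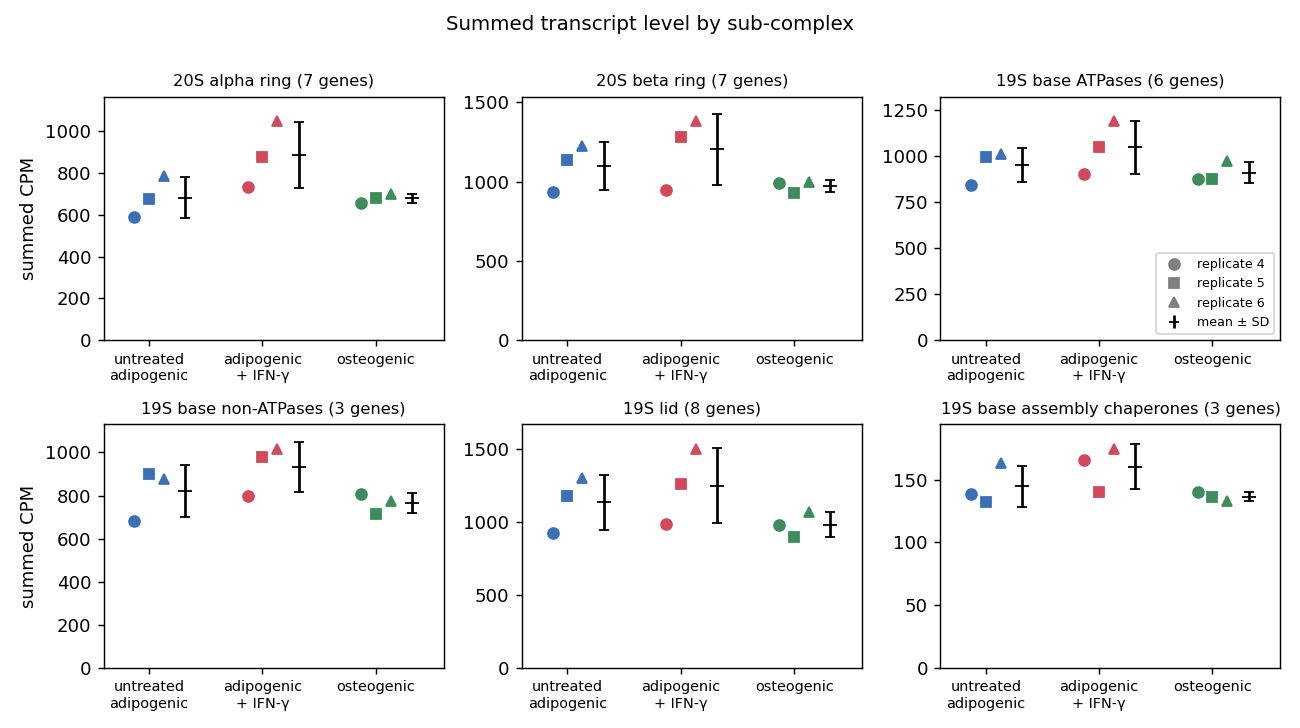
Summed CPM (vertical axes from 0) of the genes of each of the 6 sub-complexes by group, with 1 symbol per library and the mean ± SD beside it. Within the pairs all 3 treated libraries exceed their untreated partners in each panel, by 1.24 to 1.33 times for the α ring, while the osteogenic libraries stay within or near the untreated range.

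Psmc6 (ENSMUSG00000021832), a base ATPase, was the remaining member whose adipogenic groups did not overlap. It was at 124, 129 and 119.8 CPM untreated and at 136, 160.5 and 157 CPM with IFNγ, every treated library above every untreated one. Its log2 fold change was 0.28 ± 0.11 by group alone (edgeR, adjusted p = 0.291) and 0.28 ± 0.09 with the pair term (adjusted p = 0.104), so it did not pass the test. Psmd4 (ENSMUSG00000005625), a base subunit that binds ubiquitin chains, was at 164, 212 and 216 CPM untreated and 198, 233 and 239 CPM treated. It was higher in each pair, yet the groups overlapped and the adjusted p with the pair term was 0.302 (edgeR). Psmd14 (ENSMUSG00000026914), the deubiquitinating enzyme of the lid, was at 116, 112 and 119.7 CPM untreated and 106, 112 and 138 CPM treated. It was lower in pairs 4 and 5 and higher in pair 6, with a fold of 1.02 and a 95% interval of 0.829 to 1.25.

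The constitutive catalytic subunits did not share the upward direction. They were not alone in this, as 9 of 34 members, Psmb6 and Psmb7 among them, were mixed in direction over the pairs. Psmb5 (ENSMUSG00000022193) was at 37.2, 43.6 and 55.1 CPM untreated and at 33.0, 38.3 and 51.2 CPM with IFNγ. Each pair was lower with IFNγ, while the 2 groups overlapped widely. With the pair term the fold was 0.898 with a 95% interval of 0.727 to 1.11 (edgeR, adjusted p = 0.488). Psmb6 (ENSMUSG00000018286) was at 147, 179 and 205 CPM untreated and at 129.9, 191 and 203 CPM treated, a fold of 0.977 (0.837 to 1.14). Psmb7 (ENSMUSG00000026750) was at 139.5, 163 and 166 CPM untreated and at 127 to 169.9 CPM treated, a fold of 0.974 (0.850 to 1.12). For both, pairs differed in direction and the groups overlapped.

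Their interferon-induced counterparts rose in the same libraries. The values given for them are from the fit by group alone, unlike the folds above, which are with the pair term. Psmb8, the counterpart of Psmb5, went from 44.2, 14.7 and 64.8 CPM to 554, 506 and 608 CPM, up by 3.75 ± 0.48 on the log2 scale (edgeR, adjusted p = 0.00551). Psmb9, the counterpart of Psmb6, went from 13.7, 9.48 and 23.5 to 265, 349 and 364 CPM, 4.39 ± 0.39 (adjusted p = 0.00114). Psmb10, the counterpart of Psmb7, went from 22.7, 18.5 and 39.2 to 297, 284 and 425 CPM, 3.65 ± 0.32 (adjusted p = 0.000997). Psme1 and Psme2, the subunits of the 11S activator that can cap the core, rose 4.85-fold and 4.74-fold, so that 5 of 5 genes of this list rose, where 2.01% of all genes did.

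Per kilobase, the balance of the pairs shifted. Psmb8 was at 0.896, 0.254 and 0.886 times the level of Psmb5 in untreated replicates 4, 5 and 6, and at 12.7, 9.96 and 8.95 times with IFNγ. Psmb9 was at 0.0481, 0.0271 and 0.0589 times the level of Psmb6 untreated and at 1.05, 0.938 and 0.923 times treated, near parity. Psmb10 was at 0.155, 0.109 and 0.226 times the level of Psmb7 untreated and at 2.23, 1.69 and 2.39 times treated. In each of the 3 sets the interferon-induced gene passed the test and the constitutive one did not. Among the untreated libraries, replicate 5 had the lowest ratio in each.

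**Figure D4:**
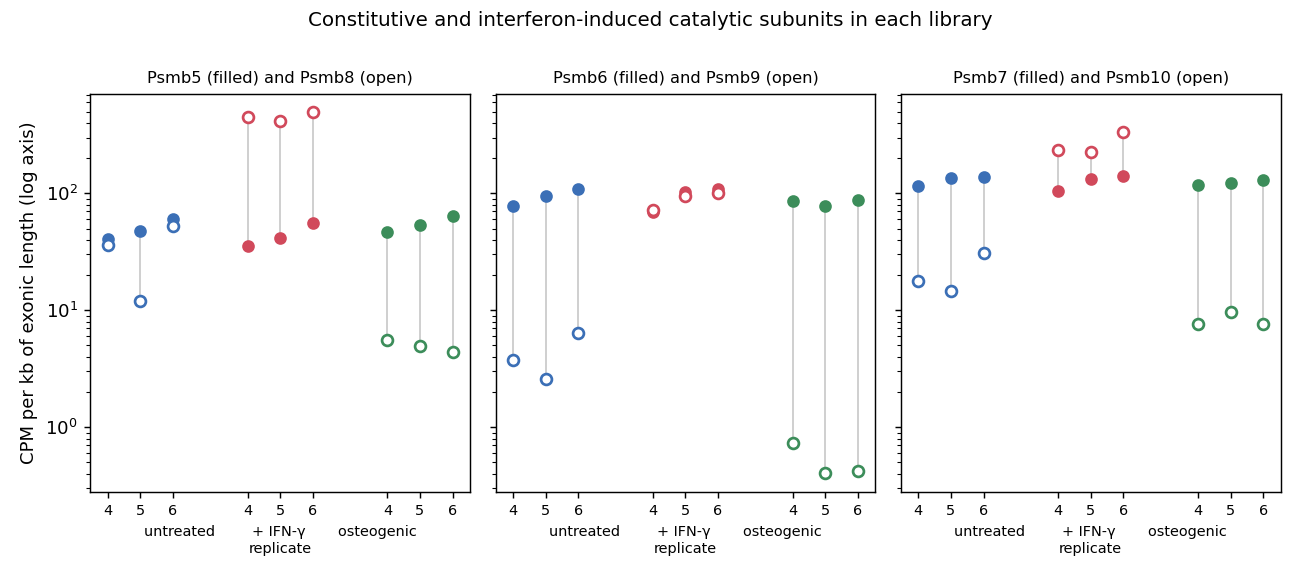
CPM per kb of exonic length (vertical axis, log scale) of Psmb5, Psmb6 and Psmb7 (filled) and of Psmb8, Psmb9 and Psmb10 (open) in each library, joined by a line. The open circles move from below the filled ones in the untreated libraries to level with them (Psmb9) or above them (Psmb8, Psmb10) with IFNγ and lie furthest below them in the osteogenic libraries, while the filled circles overlap between the groups.

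The chaperones of the base varied in different ways. Psmd5 (ENSMUSG00000026869) was at 67.0, 54.2 and 66.4 CPM untreated and 88.7, 58.9 and 79.5 CPM treated, higher in all 3 pairs with overlapping groups (edgeR with the pair term, adjusted p = 0.101). Psmd9 was at 49.9, 50.6 and 58.0 CPM untreated and 53.4, 52.3 and 56.1 CPM treated, a fold of 1.02 (0.884 to 1.18). Psmd10 (ENSMUSG00000031429), also known as gankyrin, was at 21.6, 27.2 and 38.6 CPM untreated and 23.7, 29.1 and 39.0 CPM treated, a fold of 1.06 (0.835 to 1.34). In both groups its replicate 6 was the high library.

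Chaperones that assemble the 20S core were a separate list of 5 genes, of which 1 rose by group alone and 2 with the pair term. Psmg4, which helps to build the α ring, was at 13.0, 8.51 and 13.0 CPM untreated and 24.9, 21.3 and 27.1 CPM treated, without overlap. Its log2 fold change was 1.09 ± 0.20 by group alone (edgeR, adjusted p = 0.0315). Pomp, which guides the maturation of the β rings and is known to be interferon-responsive, was at 62.1, 111 and 113 CPM untreated and 91.7, 141 and 154 CPM treated. It passed only with the pair term (edgeR, adjusted p = 0.0197, against 0.532 by group alone), at a 1.37-fold rise. Psmg1, Psmg2 and Psmg3 did not pass in either fit.

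From a list of 9 transcription factors and processing enzymes linked to proteasome genes, Stat3 was the 1 that passed. Its log2 fold change by group alone was 1.27 ± 0.16 (edgeR, adjusted p = 0.00461). Nfe2l1, which drives constitutive subunits when the proteasome is impaired, was at 605, 367 and 416 CPM untreated and 528, 451 and 520.3 CPM treated (edgeR, adjusted p = 0.88 by group alone and 0.588 with the pair term). The related factor Nfe2l2 was at 137, 97.0 and 79.3 CPM untreated and 169, 119.7 and 97.1 CPM treated (edgeR, adjusted p = 0.687 by group alone). With IFNγ the Nfe2l1 value was lower in pair 4 and higher in pairs 5 and 6, and that of Nfe2l2 was higher in all 3. None of 9 tested genes for further caps, inhibitors and bound enzymes and none of 14 ubiquitin, ubiquitin-activating and shuttle genes passed with IFNγ. Psma8 was not matched in the table and Psmb11, the thymus-specific catalytic subunit, had too few counts to be tested.

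The second comparison set osteogenic against untreated adipogenic progenitors. It shares the untreated libraries with the first, so that neither supports the other. No member passed: 0 of 34, against 5.17% of all genes (edgeR, 1.98% up and 3.19% down), with 1 member at an unadjusted p under 0.05 against 23.3% of all genes. DESeq2 and limma-voom also called 0, with backgrounds of 14% and 4.61%. The median difference was −0.13 against −0.02 over all genes, and 7 of 34 were positive, where 48.6% of all genes were. The median was −0.23 without untreated replicate 4, −0.04 without untreated replicate 6 and −0.08 without osteogenic replicate 5, and 12 members were positive without untreated replicate 5 or 6. The groups did not overlap for 2 members higher (15% of all genes) and 3 lower (15.9%).

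The 2 higher ones were Psmc6 and Psma7, both of which were also higher without overlap with IFNγ against the same untreated libraries. Psmc6 was at 147, 154 and 168 CPM in the osteogenic replicates against 119.8 to 129 CPM in the untreated adipogenic ones, a log2 fold change of 0.33 ± 0.11 (edgeR, adjusted p = 0.127). Psma7 was at 153, 178 and 154 CPM against 118 to 152 CPM, 0.29 ± 0.14 (adjusted p = 0.26). The untreated group was thus the lowest of the 3 for these genes. The 3 lower ones were Psmb4, Psmc2 and Psmd8. Psmd8 (ENSMUSG00000030591), a lid subunit, was at 180.0, 166 and 189 CPM in the osteogenic and 199, 231 and 206 CPM in the untreated libraries, a log2 fold change of −0.25 ± 0.12 (adjusted p = 0.267).

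The named subunits did not pass the test here, which does not show that they were unchanged. Psmb5 was at 42.9, 49.4 and 59.3 CPM in the osteogenic libraries, Psmb6 at 161, 146 and 165 CPM and Psmb7 at 143, 149 and 158 CPM, each overlapping the untreated range. Their folds against untreated had 95% intervals of 0.79 to 1.58, 0.653 to 1.21 and 0.77 to 1.20. Psmd4 was at 178, 145 and 163 CPM and Psmd14 at 112, 104 and 135 CPM, with log2 fold changes of −0.29 ± 0.15 and 0.01 ± 0.14. Of the chaperones, Psmd10 was at 21.2, 25.6 and 17.6 CPM, the lowest of the 3 groups on average, with a log2 fold change of −0.44 ± 0.27 that did not pass (adjusted p = 0.358). Psmd5 and Psmd9 differed by 0.12 ± 0.16 and −0.17 ± 0.11.

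The interferon-induced subunits did differ between the untreated groups. Psmb8 was at 6.77, 6.09 and 5.34 CPM, Psmb9 at 2.69, 1.47 and 1.55 CPM and Psmb10 at 9.64, 12.4 and 9.74 CPM in the osteogenic libraries, each below all untreated adipogenic ones. These 3 of 5 genes of the list were lower (3.19% of all genes were), with log2 fold changes of −2.76 ± 0.47, −3.03 ± 0.39 and −1.34 ± 0.30 (edgeR, adjusted p = 0.019, 0.00752 and 0.0422). Psme1 and Psme2 did not pass. Per kilobase, Psmb8 was at 0.119, 0.0931 and 0.0678 times Psmb5 in the osteogenic replicates, Psmb9 at 0.00482 to 0.00857 times Psmb6 and Psmb10 at 0.0590 to 0.0795 times Psmb7. Outside that list, Shfm1, a small lid subunit also called Dss1, was higher at 229, 217 and 215 CPM against 118, 159.5 and 139 CPM, a difference of 0.67 ± 0.15 on the log2 scale (adjusted p = 0.0433). Of the factors that control the complex and of the core chaperones, 0 passed here.

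Osteogenic progenitors were last set against the IFNγ-treated adipogenic ones, a contrast in which lineage and treatment cannot be told apart and which shares its libraries with the other 2. Psma5, Psmb4 and Psma4 were lower in the osteogenic group, 3 of 34 members against 9.2% of all genes lower, 7.52% higher and 16.7% in either direction, so that members were called no more often than other genes. At an unadjusted p under 0.05 there were 10 members, against 32% of all genes. The median difference was −0.31 against −0.03 over all genes, and 4 of 34 were positive, where 47.8% of all genes were. Without treated replicate 6 the median was −0.19 and 8 were positive, while 1 was positive without treated replicate 4 and 2 without osteogenic replicate 6. The groups did not overlap for 14 members, all lower in the osteogenic libraries (19.7% of all genes), among them 4 of the α ring and 3 of the base ATPases.

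Psma5, at 57.9 to 69.3 CPM in the osteogenic and 88.0 to 129 CPM in the treated libraries, differed by −0.79 ± 0.18 (edgeR, adjusted p = 0.0196). Psmb4 was at 261, 218 and 229 CPM in the osteogenic and 294, 361 and 406 CPM in the treated libraries, −0.58 ± 0.16 (adjusted p = 0.0389). Psma4 (ENSMUSG00000032301), an α ring subunit, was at 69.7, 78.6 and 90.4 CPM against 99.5, 118 and 151 CPM, −0.63 ± 0.18 (adjusted p = 0.0481). For each of the 3 the highest osteogenic library was below the lowest treated one. These calls rested on the full set of libraries: 0 members were called without treated replicate 5 or 6 or without osteogenic replicate 4, 5 or 6, and 5 without treated replicate 4. DESeq2 called 5, with a background of 22.8%, and limma-voom 2, with a background of 16.1%.

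Psma5 was the 1 member past the threshold for the treated group against both others, against the untreated one with the pair term. In CPM it averaged 64.3 ± 9.77 (SD, n = 3) untreated, 110.3 ± 20.8 treated and 63.7 ± 5.73 osteogenic. Psmb5 went the other way, at 45.3 ± 9.08, 40.8 ± 9.39 and 50.5 ± 8.25, with a log2 difference of 0.31 ± 0.22 between osteogenic and treated that did not pass (edgeR, adjusted p = 0.375). Psmb6, Psmb7 and Psmd14 differed by −0.15 ± 0.19, −0.03 ± 0.14 and −0.02 ± 0.14. Psmd4 was lower without overlap, at −0.46 ± 0.15, and did not pass (adjusted p = 0.0743). The chaperones Psmd5, Psmd9 and Psmd10 differed by −0.15 ± 0.16, −0.20 ± 0.11 and −0.51 ± 0.27, none past the threshold.

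**Figure D5:**
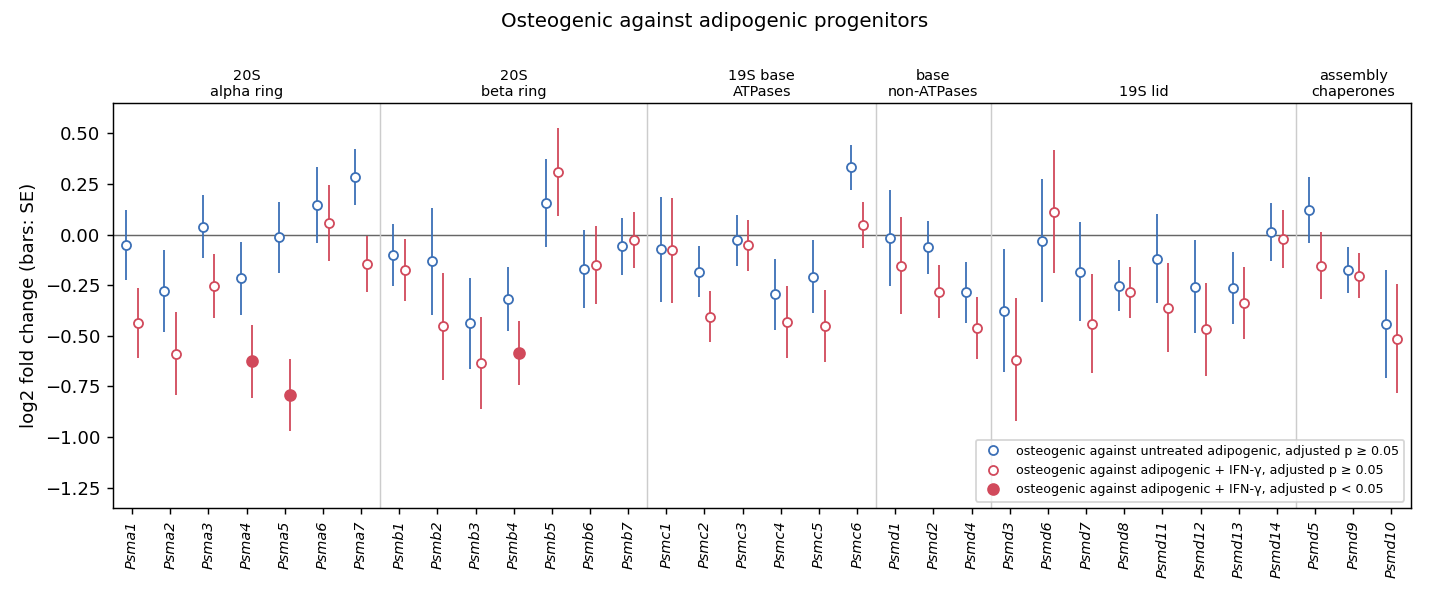
Log2 fold change with its SE (bars) of the 34 genes in osteogenic against untreated (blue) and against IFNγ-treated (red) adipogenic libraries, filled where the adjusted p was under 0.05. Filled points are Psma4, Psma5 and Psmb4 at −0.58 to −0.79 against the treated group, and no blue point is filled.

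Around the complex, all 5 interferon-induced genes were lower in the osteogenic than in the treated group (9.2% of all genes were), Psmb9 the furthest at −7.41 ± 0.46. Psmg4 was at 8.58, 8.58 and 9.83 CPM in the osteogenic libraries and differed by −1.44 ± 0.20 (edgeR, adjusted p = 0.00304). Stat3, Mafk and Maff were the 3 of 9 regulatory genes called, all lower, at −0.89 ± 0.16, −1.38 ± 0.29 and −1.07 ± 0.26. Shfm1 was higher by 0.87 ± 0.15 (adjusted p = 0.00722). In bulk RNA such as this, fewer cells with a transcript and less of it in each cell cannot be told apart.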

How the data were processed

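The 9 poly(A) RNA libraries, made with a directional kit and sequenced as 75-base single reads per the labels' protocols, gave the deposited counts per Ensembl gene, whole numbers without normalization. Tools and builds named in the submitters' processing notes are mm9, bedtools 2.11 and CASAVA 1.8.0. For the aligner, the counting rule and its strand setting nothing is given in the sources used here, so that reads of near-identical copies or overlapping genes cannot be assigned with certainty.

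The members, gene lists, tests and alternatives were chosen with earlier results of these data known. Groups came from the titles and the series design. Counts were fitted in R 4.3.3 with edgeR 4.0.16 (filterByExpr by group, TMM scaling, robust quasi-likelihood F tests, two-sided, all 9 libraries, a term for the group) and adjusted by Benjamini-Hochberg over the 15098 genes tested, at 0.05. The SE is the log2 fold change over the square root of F, and 95% intervals use the degrees of freedom of the fit. DESeq2 1.42.0 and limma 3.58.1 (voom) were alternatives, with other scalings, no filter, the 6 libraries compared and each library left out. CPM are the deposited counts over TMM-scaled library sizes. A count of 0 allows up to 0.0749 to 0.113 CPM per library, taken as 3 counts, for counting error only. An exact permutation test of 3 against 3 libraries cannot go below a two-sided p of 0.1. The fit by group alone was tested on simulated counts with planted changes far larger than those of the members. The fit with the pair term was not tested in this way.

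Same-numbered adipogenic libraries paired: over all genes their departures from the group mean had correlations of 0.778, 0.769 and 0.779, against −0.461 to −0.279 for different numbers. Departures within a group cancel, so positive values for the same numbers force negative ones on average for the others. The negative values are therefore no separate support for the pairing. Departures of osteogenic and adipogenic libraries of the same number correlated at −0.0546 to 0.0552, so only the IFNγ comparison is given with a replicate block, here called the pair term. Its fit keeps the osteogenic libraries as 1 group mean. Genes given by library were the members called, those with the 3 smallest p values in each comparison, those called with the pair term, Psmb5, Psmb6, Psmb7, Psmd4, Psmd5, Psmd9, Psmd10 and Psmd14, and the extremes per length. Psmd3, Psmd6, the members lower in all pairs or without overlap, and the copies were chosen after their values were seen. Of other genes, Psmb8, Psmb9, Psmb10, Psme1, Psme2, Nfe2l1, Nfe2l2 and Pomp were always given, with up to 4 called genes per list. Results for some other genes that this rule takes are not shown. Copies were found with blastn 2.17.0 among GENCODE transcripts, which also gave principal transcript lengths.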

Additional observations from a re-analysis of the deposited data

How the results depend on the processing

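The counts of members called moved with the settings. With IFNγ, DESeq2 called 1 member, the replicate block of the adipogenic pairs 3, and that block without pair 4 or pair 5 (chosen after seeing the data) 1 each, 0 without pair 6, against 0 by group alone. Leaving out 1 library gave 0 to 1 (1 without treated replicate 4). A replicate block over all 9 libraries called 0. For osteogenic against untreated adipogenic libraries 0 were called in every setting run, leaving out 1 library giving 0 to 0. Against the treated libraries the 3 calls became 1 with upper-quartile scaling, 1 without a filter, 1 with only the 6 libraries, 5 with DESeq2, 5 with the replicate block and 0 to 5 with 1 library left out. Where values near 0 changed sign, the cause was not tested. With IFNγ, Psmb6 and Psmb7 were at 0.0518 and 0.0230 without pair 4, Psmd14 at −0.0589 without pair 6, and Psmd9 and Psmd14 at −0.0177 and −0.0139 with upper-quartile scaling. In osteogenic against treated libraries, Psmb7 and Psmd14 were at 0.0406 and 0.0459 with that scaling. Leaving out 1 library moved the IFNγ value of Psmb5 from −0.337 to 0.0193, Psmb6 from −0.135 to 0.167, Psmb7 from −0.105 to 0.0964, Psmd9 from −0.00844 to 0.104, Psmd10 from −0.132 to 0.331 and Psmd14 from −0.0819 to 0.119. It moved Psmd14 from −0.102 to 0.0945 in osteogenic against untreated libraries, and Psmb7 from −0.156 to 0.0449 and Psmd14 from −0.135 to 0.0928 against treated ones. For IFNγ, these fits by group alone break a pair. With the pair term, Psmb5 was at −0.131, −0.139 and −0.172 without pairs 4, 5 and 6. Psmd9 was then at 0.0146 to 0.0807 and Psmd10 at 0.0709 to 0.125, while Psmb6, Psmb7 and Psmd14 changed sign as given above. The principal transcript length, chosen after seeing the data, gave a 25.7-fold span per length, a treated Psmb8 to Psmb5 ratio of 7.71 and a treated Psmb9 to Psmb6 ratio of 1.11. Without any length, Psmb8 to Psmb5 was 14.0 treated and 0.124 osteogenic, and Psmb9 to Psmb6 was 0.0871 untreated, 1.89 treated and 0.0121 osteogenic. On the forward strand alone the GC box was present for 42.9% of members, against 25.6% of all genes. The ETS core was present there for 17.9% against 5.395%. For the CCAAT box the forward-strand shares were 39.3% against 23.7%, apart from each other unlike those on both strands.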
